A study of Mus musculus with 18 samples.

Results

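The oncofetal RNA-binding and chromatin genes described here are Lin28a, Lin28b, Trim71, Hmga1, Hmga2, Igf2bp1, Igf2bp2 and Igf2bp3. They were selected by gene symbol, with earlier results of these data known, and make up 8 of the 55469 mouse genes in the expression tables. Each was followed as FPKM (fragments per kilobase of transcript, scaled to the mapped fragments of the library) in all 18 RNA-Seq libraries of the study. The study asked how pluripotent stem cells kept by induced reprogramming factors differ from cells kept in the standard medium 2iL. OSKM stands for Oct4, Sox2, Klf4 and c-Myc, which were carried as a single cassette in the Col1a1 locus and switched on by doxycycline (DOX) through the M2rtTA activator in Rosa26. 2iL is N2B27 medium with the MEK inhibitor PD0325901, the GSK3 inhibitor CHIR99021 and the cytokine LIF.

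The OSKM-ESCs and 2iL-ESCs came from 1 embryonic stem cell line, Tet-On-OSKM/Oct4-GFP, made by crossing (C57BL/6 x 129S4/SvJae)F1 with (CBA/CaJ X C57BL/6J)F2 mice. This line also carried GFP under the distal Oct4 promoter and was derived in 2iL on mitomycin-treated fibroblast feeders. OSKM-ESCs had been moved from 2iL to N2B27 with DOX, so OSKM induction and 2iL withdrawal cannot be told apart. Both kinds of ESC were collected at days 18, 25 and 38, with n = 2 libraries per medium and day. The induced pluripotent stem cells (iPSCs) and the mouse embryonic fibroblasts (MEF cells) were (C57BL/6 x 129S4/SvJae)F1, so strain and cell type cannot be told apart between ESCs and these cells. OSKM-iPSC clones 1 and 3 were kept in N2B27 with DOX and were at passages 7 and 6. 2iL-iPSC clones 3 and 6 were reprogrammed in 2iL with DOX and were at passages 2 and 3. Medium thus goes with passage number in iPSCs, and their effects cannot be told apart. The sample label of the 2iL-iPSCs gives N2B27 with DOX for daily culture, whereas the methods give 2iL, with DOX withdrawn once colonies were picked. Grouping here followed the sample titles, which name them 2iL-iPSCs. MEF cells were at passage 4, in serum medium, with n = 2 libraries. The labels do not say that the libraries of a group came from separate cultures, so p-values measure the spread between these libraries, which may be technical.

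The LIN28 proteins bind precursors of the let-7 microRNAs and block their maturation, LIN28A mainly in the cytoplasm with the uridylyltransferases TUT4 and TUT7, and LIN28B also in the nucleus. Mature let-7 in turn represses mRNAs that carry its seed match, among them Lin28a, Lin28b, Trim71, Hmga2 and the Igf2bp genes, so that the family forms a switch between embryonic and differentiated states. TRIM71 is a ubiquitin ligase and mRNA repressor, HMGA1 and HMGA2 are architectural proteins that bind AT-rich DNA, and IGF2BP1 to IGF2BP3 bind mRNAs and alter their stability and translation. They are known from early embryos, and most are shut off or reduced in adult tissues.

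The mature let-7 sequences are shown because their shared seed (bases 2 to 8, in capitals) defines the site searched for in the 8 genes. The RefSeq table used here gives a let-7 or miR-98 mature sequence from the 5′ arm for 13 mouse loci on GRCm38.p6, with 11 distinct sequences. Mirlet7a-2 is not among these loci. Of these, 10 sequences from 12 loci had the seed GAGGUAG, and let-7j had GAGGUAU. The miRNAs themselves were not measured in these mRNA libraries. The 4 sequences printed, 5′ to 3′, are those of Mirlet7a-1 (chr13:48538239-48538260, minus strand), Mirlet7g (chr9:106178846-106178867, plus), Mir98 (chrX:151913229-151913250, plus) and Mir7j (chr3:140028281-140028304, plus).
mmu-let-7a-5p: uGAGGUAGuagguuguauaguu
mmu-let-7g-5p: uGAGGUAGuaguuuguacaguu
mmu-miR-98-5p: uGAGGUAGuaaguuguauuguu
mmu-let-7j: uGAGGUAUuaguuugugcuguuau

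LIN28 proteins recognize a GGAG stretch in the loop side of many let-7 precursors. A script found GGAG between the arms of 9 of these 13 hairpins. The hairpin of Mirlet7g (chr9:106178840-106178927, plus) holds it, in capitals, and that of Mirlet7b (chr15:85707319-85707403, plus) does not.
Mirlet7g: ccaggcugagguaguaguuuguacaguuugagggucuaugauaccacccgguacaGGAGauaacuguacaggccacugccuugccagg
Mirlet7b: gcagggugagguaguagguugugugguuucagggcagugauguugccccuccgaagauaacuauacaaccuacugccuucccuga

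The seed match CTACCTC was searched on the transcript strand of the 3′UTRs in the GENCODE M21 annotation of GRCm38, 1 transcript per gene. It was present in the 3′UTR of each of the 8 genes, against 1898 of 21037 genes with a 3′UTR (9.02%). Lin28b, Trim71, Hmga2 and Igf2bp1 held 4 matches each, Lin28a held 2, and Hmga1, Igf2bp2 and Igf2bp3 held 1 each. Longer 3′UTRs offer more positions for a match. Among genes with 3′UTRs within 10% of the length of the gene in question, the share with a match ran from 8.39% for Hmga1 (1183 bases) to 35.8% for Igf2bp1 (6337 bases). A match is a description of the sequence and does not show that let-7 acts there. The match nearest the stop codon of each gene is shown with the bases before it, the match in capitals, at chr4:134005189-134005211 (minus) for Lin28a, chr10:45381022-45381044 (minus) for Lin28b, chr9:114512472-114512494 (minus) for Trim71, chr17:27563277-27563299 (plus) for Hmga1, chr10:120364224-120364246 (minus) for Hmga2, chr11:95961778-95961800 (minus) for Igf2bp1, chr16:22059473-22059495 (minus) for Igf2bp2 and chr6:49086787-49086809 (minus) for Igf2bp3.
Lin28a: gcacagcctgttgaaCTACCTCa
Lin28b: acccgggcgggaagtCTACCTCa
Trim71: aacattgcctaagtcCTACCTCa
Hmga1: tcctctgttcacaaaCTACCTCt
Hmga2: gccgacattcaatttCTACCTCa
Igf2bp1: gctgtgcgaagtaaaCTACCTCa
Igf2bp2: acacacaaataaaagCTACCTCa
Igf2bp3: tgcatttttactcaaCTACCTCa

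The depth in reads is unknown, since only FPKM, TPM and mean coverage were deposited. Genes over FPKM 1 numbered 11305 to 12097 per library. The labels were checked against 10 fibroblast and 8 pluripotent markers. Summed FPKM of the pluripotent markers was 1200 to 1854 in OSKM-ESCs, 2798 to 3135 in 2iL-ESCs, 1009 to 1650 in OSKM-iPSCs, 2802 to 3276 in 2iL-iPSCs and at most 0.466 in MEF cells, where Nanog, Pou5f1, Sall4, Tdgf1, Utf1 and Zfp42 were listed at 0. Summed FPKM of the fibroblast markers, as a percent of the MEF mean, was 1.54 to 2.75% in OSKM-ESCs, 0.301 to 0.527% in 2iL-ESCs and 0.218 to 0.340% in 2iL-iPSCs. OSKM-iPSC clone 1 stood apart at 6.66%, against 0.524% in clone 3. The 4 endoderm markers summed to 4.95 and 6.63 in OSKM-ESCs of day 38, at most 1.86 in the other pluripotent libraries, and 7.02 and 6.41 in MEF cells. Of these, Foxa2 (2.03, limma adjusted p = 0.000125) and Sox17 (1.22, adjusted p = 0.00764) were called higher in OSKM-ESCs than in 2iL-ESCs at day 38. Among 4 neural markers, which summed to 38.9 to 50.2 in OSKM-ESCs, 47.8 to 69.5 in 2iL-ESCs and 31.0 and 33.0 in MEF cells, Sox1 was listed at 0 in all libraries. Over all days Nes (log2 change 1.32, adjusted p = 4.56e-07) and Pax6 (0.75, adjusted p = 0.000864) were higher and Tubb3 (-0.83, adjusted p = 1.26e-05) was lower in OSKM-ESCs. In bulk libraries, fewer cells of a type and less RNA per cell cannot be told apart.

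The comparison of OSKM-ESCs with 2iL-ESCs asked whether the 8 genes differ between the media. Over all 3 days, Lin28a, Lin28b, Hmga1 and Igf2bp3 were higher and Igf2bp1 was lower in OSKM-ESCs, and Trim71, Hmga2 and Igf2bp2 did not pass the test. These 5 calls of 8 stand beside 53.8% of the 14016 genes tested (29.5% higher, 24.4% lower), so the share called is near that of all genes. Tests here and below are limma on log2(FPKM + 1) with Benjamini-Hochberg adjustment over all genes tested, with an adjusted p under 0.05 called. Fold changes on this scale understate those of low genes. For Lin28a, Lin28b and Igf2bp3 every OSKM-ESC library lay above every 2iL-ESC library, which was so for 14.6% of all genes. With the study's cutoff of 2-fold and an unadjusted p under 0.05, Lin28a and Lin28b were called higher over all days (13.6% of all genes called higher), as at days 25 (10.5%) and 38 (15.3%), and Lin28b alone at day 18 (14.8%).

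**Figure D1:**
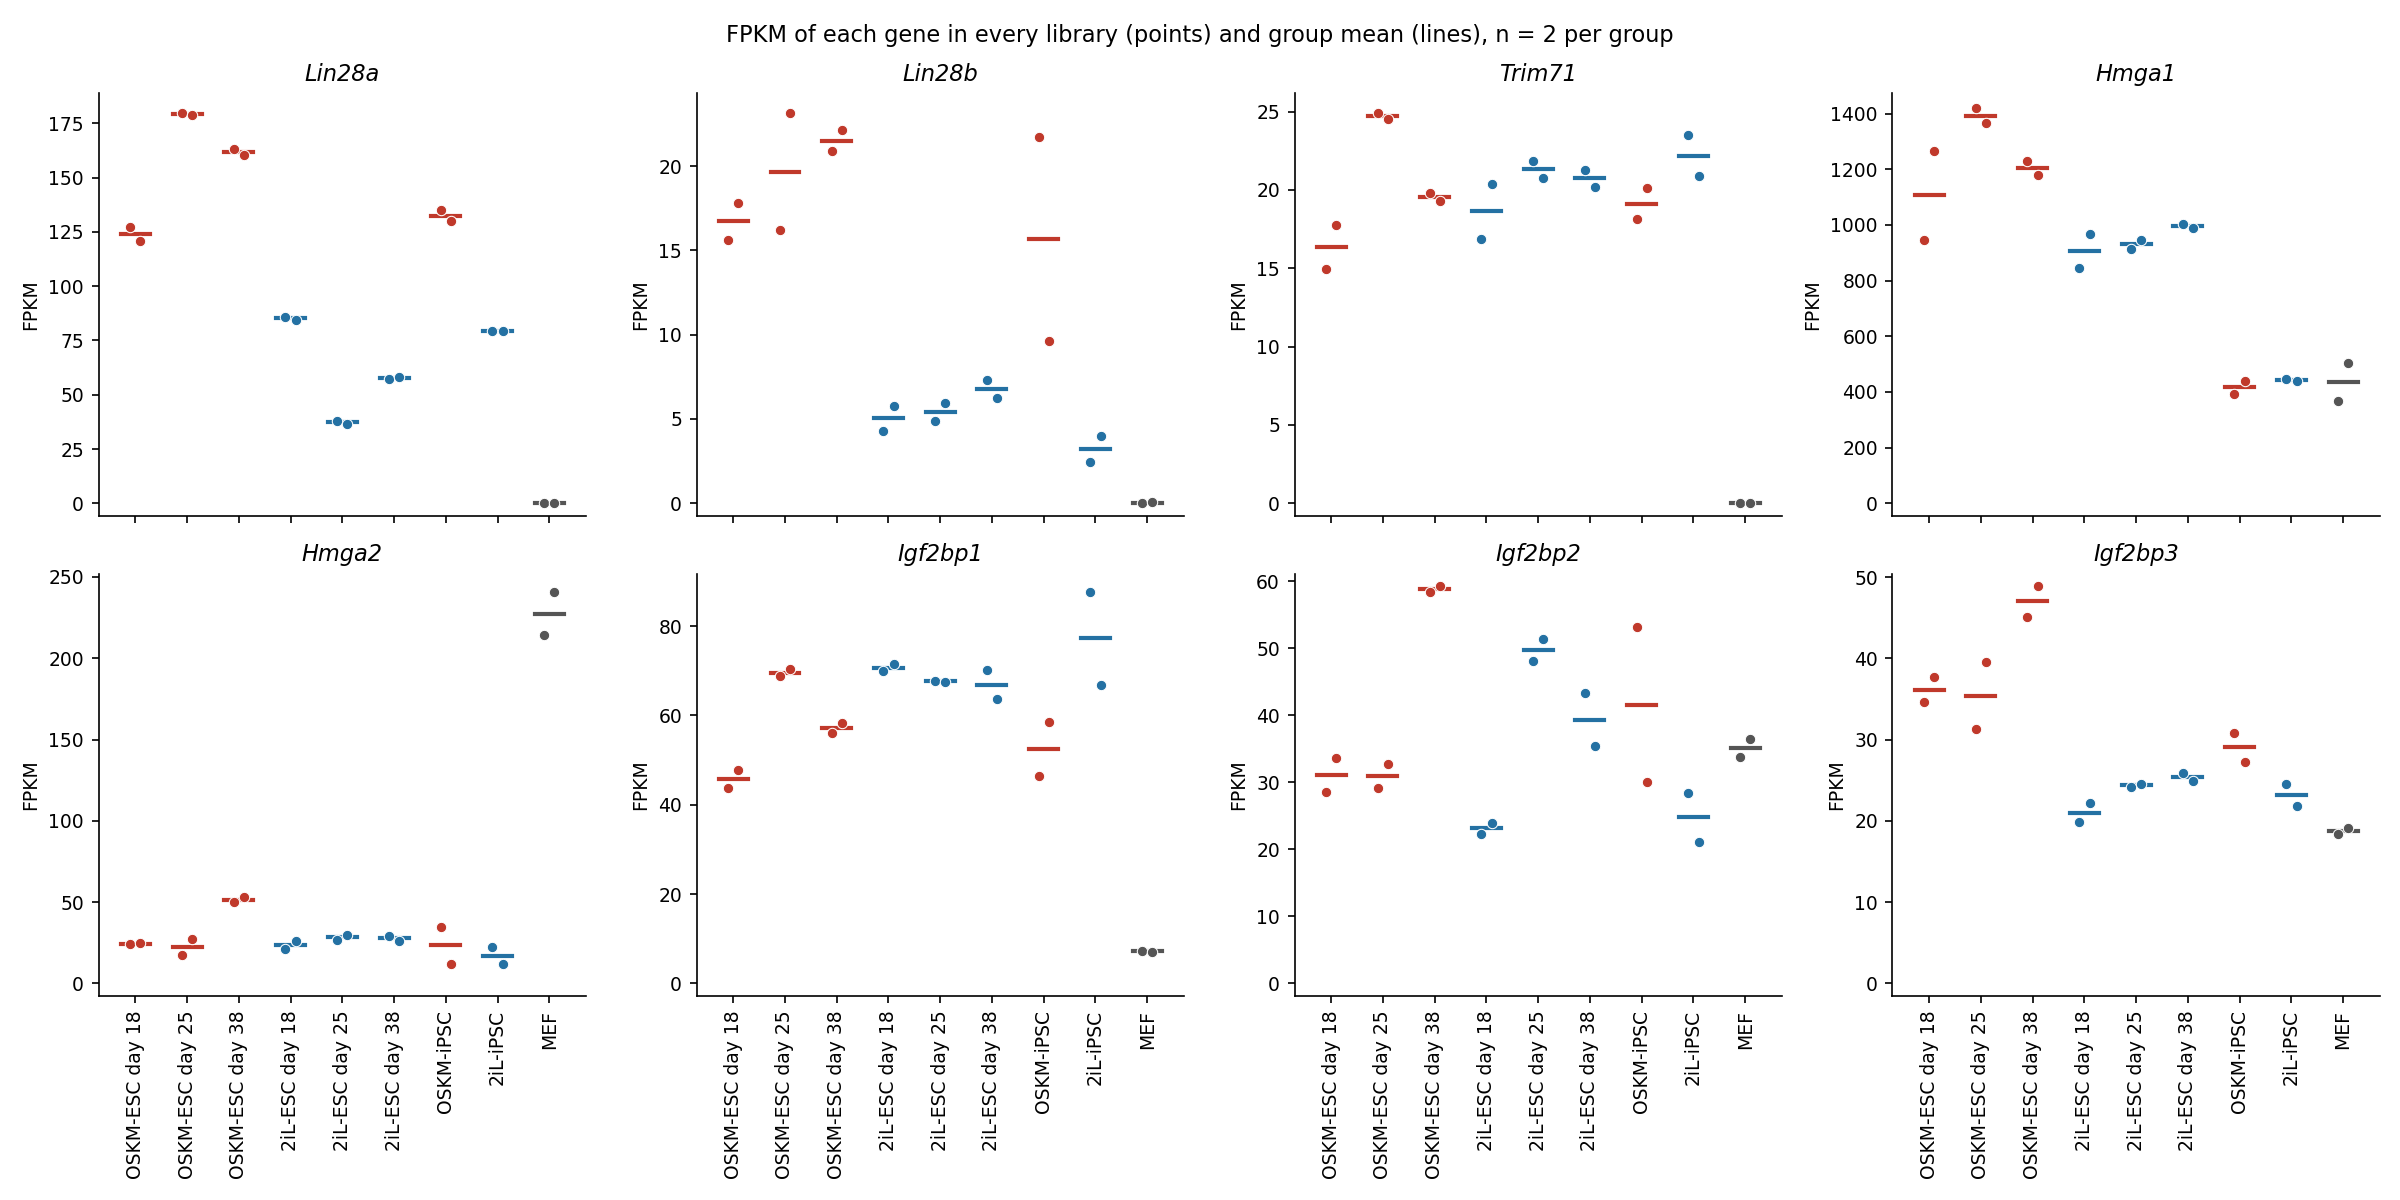
FPKM (vertical axes, linear, each panel with its own range) of the 8 genes in every library (points) of 9 groups, with group means (lines), n = 2 per group. Lin28a and Lin28b are higher in every OSKM-ESC library (red) than in every 2iL-ESC library (blue), Trim71 lies between 14.9 and 24.9 in ESCs, and Hmga2 is highest in MEF cells (grey), at 214 and 241.

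Lin28a (ENSMUSG00000050966, chr4:134003330-134018841, minus strand) had the largest ratio between media after its paralog Lin28b. In OSKM-ESCs its FPKM was 127 and 121 at day 18, 179.8 and 179 at day 25, and 163 and 161 at day 38. In 2iL-ESCs it was 85.9 and 84.7 at day 18, 37.7 and 36.7 at day 25, and 57.4 and 58.1 at day 38. The 2 libraries of each group lay close together, and the group means followed each other with no overlap between any neighbours across all 9 groups. The mean was 155 ± 25.5 (SD, n = 6) in OSKM-ESCs and 60.1 ± 21.6 in 2iL-ESCs, a ratio of 2.58. The log2 change was 1.42 (SE 0.21, limma adjusted p = 0.000124), and an exact 2-sided permutation test gave p = 0.00216, the smallest that 6 against 6 libraries allow. Exact permutation tests of 6 against 6 libraries, here and below, shuffled libraries without regard to day. The 6 libraries of a medium come from 3 days of 1 line and are not known to be independent. Their SD includes the differences between days.

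The Lin28a difference was not equal on the 3 days. It was 0.53 (SE 0.11) at day 18, 2.24 (SE 0.08) at day 25 and 1.47 (SE 0.04) at day 38 on the log2 scale, with limma adjusted p-values of 0.00753, 0.000103 and 1.56e-05. The spread of these effects over days, 1.70, passed the test of the interaction of medium and day (adjusted p = 4.17e-06). Leaving out 1 library of day 18, which leaves 1 in a group, gave 0.50 to 0.57, and the day 18 call was not always kept. Lin28a changed in both media over time, with a range of day means of 0.53 in OSKM-ESCs (adjusted p = 0.0113) and of 1.17 in 2iL-ESCs (adjusted p = 0.000183). Day 25 was the highest day in OSKM-ESCs and the lowest in 2iL-ESCs. The summed FPKM of the 5 formative and primed epiblast markers Fgf5, Otx2, Pou3f1, Dnmt3b and T is given beside it. That sum was 202 to 242, 425 to 427 and 374 to 383 in OSKM-ESCs at days 18, 25 and 38, and 116 to 119, 51.3 to 52.9 and 90.4 to 96.0 in 2iL-ESCs, and its part in the Lin28a values was not tested. Dnmt3b carried most of the sum, at 144 to 155, 358 to 366 and 154 to 158 in OSKM-ESCs and 108 to 109, 48.2 to 50.3 and 86.6 to 91.5 in 2iL-ESCs. Other markers had another order, since T in OSKM-ESCs was lowest at day 25 (13.3 to 13.8) and Otx2 in 2iL-ESCs was highest on that day (0.718 to 0.865).

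Lin28b (ENSMUSG00000063804, chr10:45376620-45486395, minus strand) was present at lower levels than its paralog, with a similar difference on each day. The OSKM-ESC libraries had an FPKM of 15.6 and 17.8 at day 18, 16.2 and 23.2 at day 25, and 20.9 and 22.1 at day 38. The 2iL-ESC libraries had 4.28 and 5.79, 4.88 and 5.96, and 7.34 and 6.25 on the same days. The lowest OSKM-ESC library thus lay above the highest 2iL-ESC library by more than the range of any day's pair. The means were 19.3 ± 3.18 and 5.75 ± 1.07 (SD, n = 6 each), a ratio of 3.36, and the log2 change was 1.59 (SE 0.10, limma adjusted p = 1.63e-07). Single-day changes were 1.56, 1.67 and 1.53, and their spread of 0.14 did not pass the interaction test (adjusted p = 0.880). The ratio of Lin28b to Lin28a within a library, which FPKM allows because it is per length, differed by 0.17 on the log2 scale between media (exact permutation p = 0.532). Lin28b made up 8.27 to 12.8% of the summed Lin28 FPKM in OSKM-ESCs and 4.75 to 14.0% in 2iL-ESCs.

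Trim71 (ENSMUSG00000079259, chr9:114507133-114564369, minus strand), also called LIN41, is a classic let-7 target. Its FPKM in OSKM-ESCs was 14.9 and 17.8 at day 18, 24.9 and 24.5 at day 25, and 19.8 and 19.3 at day 38. In 2iL-ESCs it was 16.9 and 20.4, 21.9 and 20.8, and 21.3 and 20.2. The media overlapped, with means of 20.2 ± 3.88 and 20.2 ± 1.74 (SD, n = 6 each). The log2 change was -0.02 (SE 0.08, limma adjusted p = 0.866), and no single day passed. Within OSKM-ESCs Trim71 changed over the days by a range of 0.57 (adjusted p = 0.0195), with day 25 highest.

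**Figure D2:**
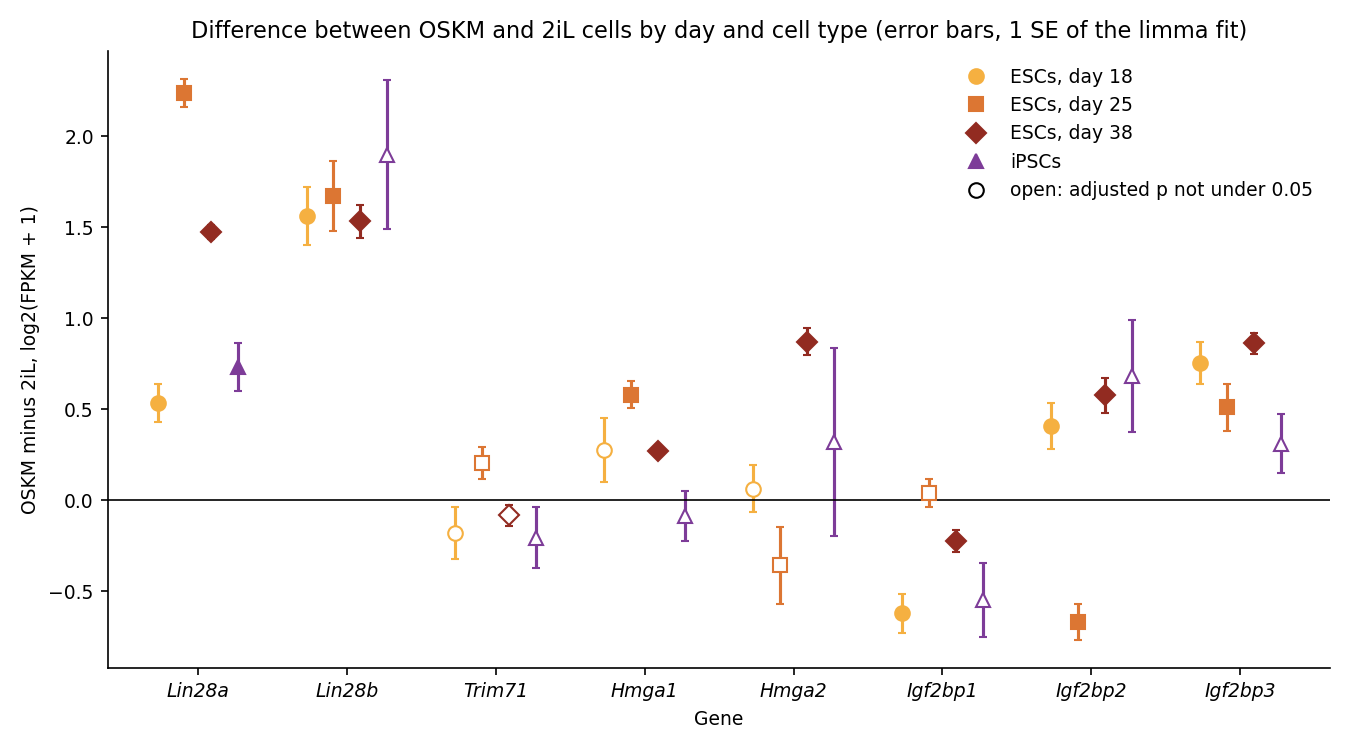
OSKM minus 2iL difference on the log2(FPKM + 1) scale (vertical axis) for each gene (horizontal axis) in ESCs of days 18, 25 and 38 and in iPSCs. Error bars are 1 SE of the limma fit, and filled symbols passed an adjusted p under 0.05. Lin28b lies between 1.53 and 1.90 in all 4 contrasts, Lin28a runs from 0.53 to 2.24, and Igf2bp2 lies on both sides of 0.

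On single days, 5 members were called at day 18, 4 higher and 1 lower, beside 43.4% of all genes (25.7% higher, 17.7% lower). At day 25 there were 5, of which 4 were higher and 1 lower, beside 46.0% (20.7% higher, 25.3% lower). At day 38 there were 7, of which 6 were higher and 1 lower, beside 59.8% (34.6% higher, 25.2% lower). With 2 libraries against 2, groups do not overlap for many genes. This was so for 41.9% in the higher and 31.2% in the lower direction at day 18, 34.4% and 41.1% at day 25, and 46.2% and 34.6% at day 38. Lin28a, Lin28b and Igf2bp3 were among them on every day, all higher in OSKM-ESCs. The medium effect differed between days for 4 members, Lin28a, Hmga2, Igf2bp1 and Igf2bp2, against 37.9% of all genes. Over the days, 5 members changed in OSKM-ESCs (38.6% of all genes) and 3 in 2iL-ESCs (50.8%).

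Hmga1 (ENSMUSG00000046711, chr17:27556497-27563674, plus strand), the more abundant HMGA gene, had an FPKM above those of 98.8 to 99.8% of the genes over FPKM 1 in each group. In OSKM-ESCs its FPKM was 947 and 1265 at day 18, 1419.8 and 1365 at day 25, and 1228 and 1179 at day 38. In 2iL-ESCs it was 845 and 966, 915 and 947, and 1002 and 989. All but 1 OSKM-ESC library lay above all 2iL-ESC libraries, the exception being the lower library of day 18. The means were 1234 ± 166 and 944 ± 57.4 (SD, n = 6 each), a ratio of 1.31, with a log2 change of 0.38 (SE 0.08, limma adjusted p = 0.00227). The exact permutation p was 0.00866. The change passed at day 25 (0.58, SE 0.07, adjusted p = 0.00282) and day 38 (0.27, SE 0.03, adjusted p = 0.00115), and its spread over days did not (adjusted p = 0.271). Leaving out 1 library of day 25, which leaves 1 in a group, gave 0.55 to 0.61, and the day 25 call was not always kept.

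Hmga1b (ENSMUSG00000078249, chr11:120762794-120764419, plus strand) is listed as a separate gene whose sequence is close to that of Hmga1. Of the 1477 windows of 150 bases in its 1626-base transcript, 69.5% also occurred in the 17 annotated Hmga1 transcripts, with a longest shared run of 656 bases. The authors kept uniquely mapped reads, so reads from the shared stretches could be lost from both genes, and both values are uncertain. Hmga1b FPKM was 28.3 to 37.0 in OSKM-ESCs and 22.9 to 25.1 in 2iL-ESCs, or 2.37 to 2.99% and 2.32 to 2.97% of Hmga1. In iPSCs it was 40.0 in OSKM-iPSC clone 3 and 36.7 and 40.7 in the 2iL-iPSC clones, or 9.10%, 8.24% and 9.28% of Hmga1. In OSKM-iPSC clone 1 it was 244, or 62.1% of Hmga1. The share was thus larger in every iPSC library than in any ESC library. MEF cells had 6.32 and 8.74, or 1.73% of Hmga1 in both libraries. Clone 1 is a single library, so the value has no replicate.

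**Figure D3:**
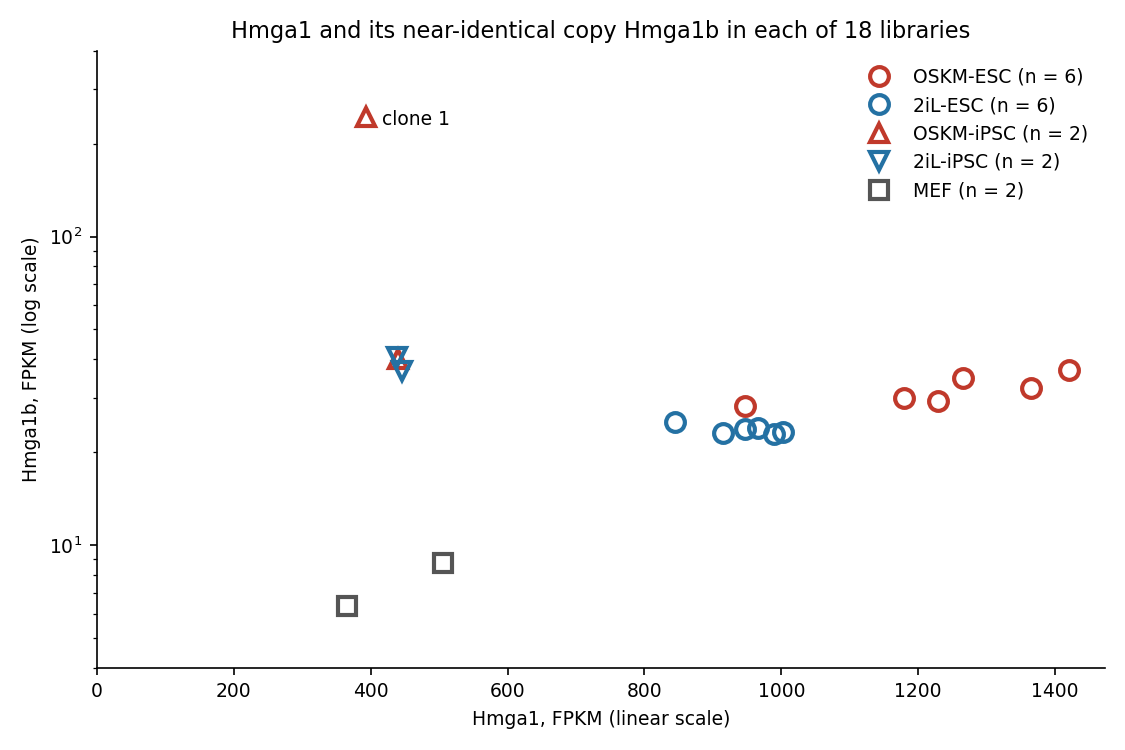
FPKM of Hmga1 (horizontal axis, linear) and of Hmga1b (vertical axis, log scale) in each of 18 libraries, by group. OSKM-iPSC clone 1 stands apart with a Hmga1b FPKM of 244, while the other pluripotent libraries lie between 22.9 and 40.7.

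Hmga2 (ENSMUSG00000056758, chr10:120361275-120476469, minus strand) passed the test between media at day 38 and at neither earlier day. In OSKM-ESCs its FPKM was 23.9 and 25.1 at day 18, 17.4 and 27.2 at day 25, and 49.9 and 53.0 at day 38. 2iL-ESCs had 21.2 and 25.9, 26.9 and 29.6, and 29.4 and 26.0. The pair of OSKM-ESC libraries of day 38 lay above all other ESC libraries. Over all days the log2 change was 0.19 (SE 0.18, limma adjusted p = 0.384). At day 38 it was 0.87 (SE 0.07, adjusted p = 0.000399), a ratio of 1.86, and the spread over days of 1.23 passed the interaction test (adjusted p = 0.0102).

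Hmga2 was also by far highest in MEF cells, with 214 and 241, and the ESCs had grown from a line derived on fibroblast feeders. Fibroblast markers are therefore given beside it. Hmga2 in OSKM-ESCs was 7.66 to 23.3% of the MEF mean, while the 10 fibroblast markers summed to 1.54 to 2.75% of theirs. In 2iL-ESCs the values were 9.32 to 13.0% for Hmga2 and 0.301 to 0.527% for the markers. At day 38 the fibroblast marker sum of OSKM-ESCs lay within the range of the earlier days. Some, not all, markers of other lineages were higher in the OSKM-ESC libraries of day 38 than in those of days 18 and 25. T was 194 to 198 against 13.3 to 48.9, and Foxa2 was 2.89 to 3.31 against at most 0.762. Sox17 was 1.19 to 2.35 against at most 0.416. Gata4 overlapped, at 0.308 to 0.536 against 0.214 to 0.762, as did Fgf5, at 2.41 to 3.64 against 3.09 to 6.10. Pou3f1 was lower, at 8.77 to 9.52 against 10.5 to 35.2. The part of these markers in the Hmga2 values was not tested. In OSKM-iPSC clone 1 Hmga2 was at 15.2% and the fibroblast markers at 6.66%, and in clone 3 at 5.37% and 0.524%.

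**Figure D4:**
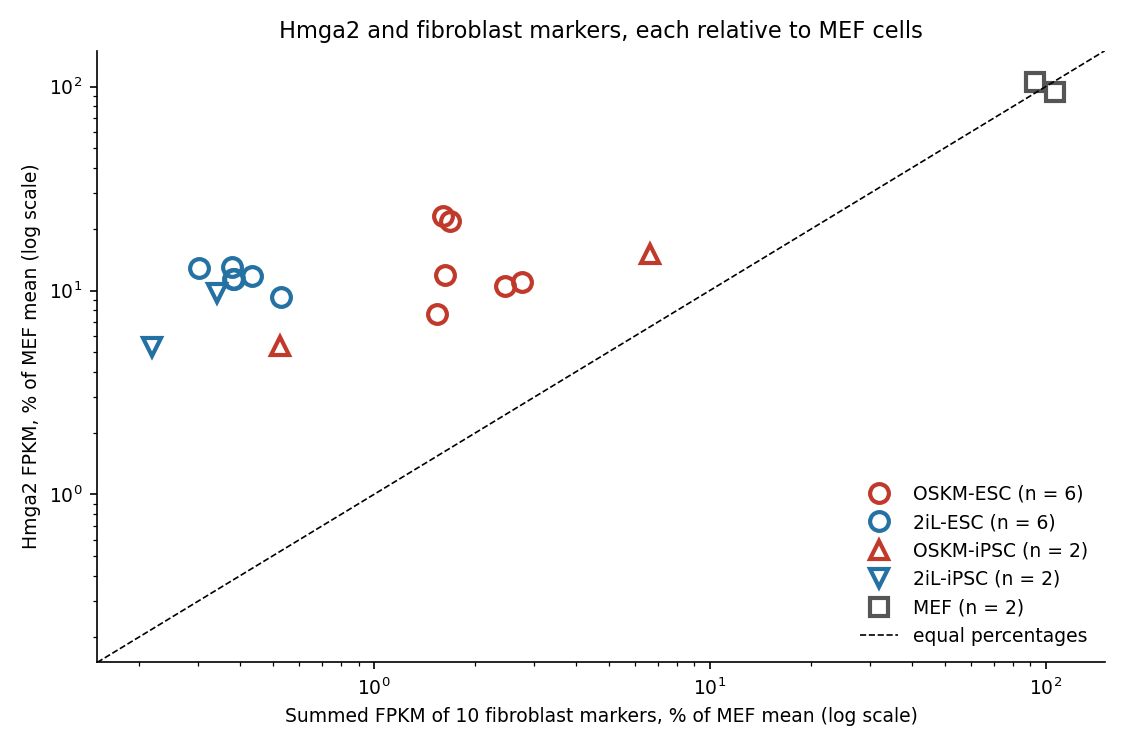
Hmga2 FPKM as a percent of the MEF mean (vertical axis, log scale) against the summed FPKM of 10 fibroblast markers as a percent of their MEF mean (horizontal axis, log scale), 1 symbol per library; the dashed line marks equal percentages. All pluripotent libraries lie above the line, with Hmga2 between 5.28 and 23.3% and the markers between 0.218 and 6.66%.

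Each of the 3 Igf2bp genes moved in its own way between media. Igf2bp1 (ENSMUSG00000013415, chr11:95957163-96005940, minus strand) encodes the protein also known as IMP1 or ZBP1. Its FPKM in OSKM-ESCs was 43.7 and 47.7 at day 18, 68.8 and 70.4 at day 25, and 56.0 and 58.3 at day 38. In 2iL-ESCs it was steady, at 70.0 and 71.4, 67.6 and 67.6, and 70.2 and 63.7. The OSKM-ESC libraries of days 18 and 38 lay below all 2iL-ESC libraries, and those of day 25 did not. Over all days the log2 change was -0.27 (SE 0.09, limma adjusted p = 0.0291, exact permutation p = 0.0455). This call was lost in 6 of the 12 fits that each left out 1 library (-0.31 to -0.21), namely without any 1 library of day 18 or without replicate 1 of either medium at day 38. At day 18 the change was -0.62 (SE 0.11, adjusted p = 0.00458), and the spread over days of 0.66 passed the interaction test (adjusted p = 0.00250). Leaving out 1 library of day 18 in the single-day fit, which leaves 1 in a group, gave -0.68 to -0.56. The day 18 call was not always kept.

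Igf2bp2 (ENSMUSG00000033581, chr16:22059009-22163299, minus strand), the paralog most widely kept in adult tissues, turned direction between days. At the 3 days its FPKM in OSKM-ESCs was 28.5 and 33.7, then 29.1 and 32.8, then 58.4 and 59.2. The matching 2iL-ESC values were 22.3 and 23.9, 48.1 and 51.3, and 43.3 and 35.3. It was thus higher in OSKM-ESCs at days 18 and 38 and lower at day 25, with no overlap on any day. The log2 changes were 0.41 (SE 0.12), -0.67 (SE 0.10) and 0.58 (SE 0.10), with limma adjusted p-values of 0.0384, 0.00443 and 0.00460. The spread over days of 1.24 passed the interaction test (adjusted p = 0.000684), and over all days the change was 0.11 (SE 0.17, adjusted p = 0.637). Leaving out 1 library kept the direction on each day and the interaction call each time. The day 18 call was lost in 3 of 4 such fits (0.29 to 0.52, adjusted p up to 0.208, kept without OSKM-ESC replicate 1). The day 38 call was lost without either OSKM-ESC library (adjusted p up to 0.0721), and the day 25 call without 2iL-ESC replicate 2 (adjusted p = 0.0677). Igf2bp2 changed over the days within both media, by a range of 0.91 in OSKM-ESCs (adjusted p = 0.00266) and 1.07 in 2iL-ESCs (adjusted p = 0.00136).

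Igf2bp3 (ENSMUSG00000029814, chr6:49085223-49214957, minus strand), a paralog re-expressed in many tumours, was higher in OSKM-ESCs on all 3 days. OSKM-ESCs had an FPKM of 34.7 and 37.7 at day 18, 31.3 and 39.6 at day 25, and 45.1 and 48.9 at day 38. 2iL-ESCs had 19.9 and 22.2, 24.2 and 24.6, and 25.9 and 25.0. No 2iL-ESC library reached the lowest OSKM-ESC library. The means were 39.5 ± 6.55 and 23.6 ± 2.20 (SD, n = 6 each), a ratio of 1.67, with a log2 change of 0.71 (SE 0.08, limma adjusted p = 1.28e-05). The single-day changes of 0.76, 0.51 and 0.86 each passed, and their spread of 0.35 did not pass the interaction test (adjusted p = 0.197). Leaving out 1 library of day 25, which leaves 1 in a group, gave 0.35 to 0.68, and the day 25 call was not always kept.

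Within each library, the makeup of the Igf2bp mRNAs differed between media. Of 5 paralog ratios compared between 6 OSKM-ESC and 6 2iL-ESC libraries, 2 passed after Benjamini-Hochberg adjustment. The log2 ratio of Igf2bp3 to Igf2bp1 was -0.52 (SD 0.36) in OSKM-ESCs and -1.50 (SD 0.17) in 2iL-ESCs, with no overlap (exact permutation p = 0.00216, adjusted 0.0108). The ratio of Igf2bp3 to Igf2bp2 was 0.03 and -0.58, with overlap (exact permutation p = 0.0152, adjusted 0.0379). The ratios of Igf2bp2 to Igf2bp1 and of Hmga2 to Hmga1 differed by 0.37 and -0.18 (exact permutation p = 0.249 and p = 0.556). Their direction differed between days. The plain ratio of Igf2bp2 to Igf2bp1 was 0.653 and 0.706 in OSKM-ESCs against 0.319 and 0.335 in 2iL-ESCs at day 18. At day 25 it was 0.424 and 0.465 against 0.710 and 0.759. At day 38 it was 1.04 and 1.02 against 0.617 and 0.555. Hmga2 was 1.23 and 1.99% of Hmga1 against 2.94 and 3.12% at day 25. At day 38 it was 4.06 and 4.50% against 2.63 and 2.93%, and day 18 overlapped. Igf2bp3 made up 24.2 to 32.4% of the summed Igf2bp FPKM in OSKM-ESCs and 17.1 to 20.1% in 2iL-ESCs, while Igf2bp1 made up 35.0 to 53.2% and 47.1 to 62.4%. The sum itself overlapped, at 107 to 166 and 112 to 143.

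**Figure D5:**
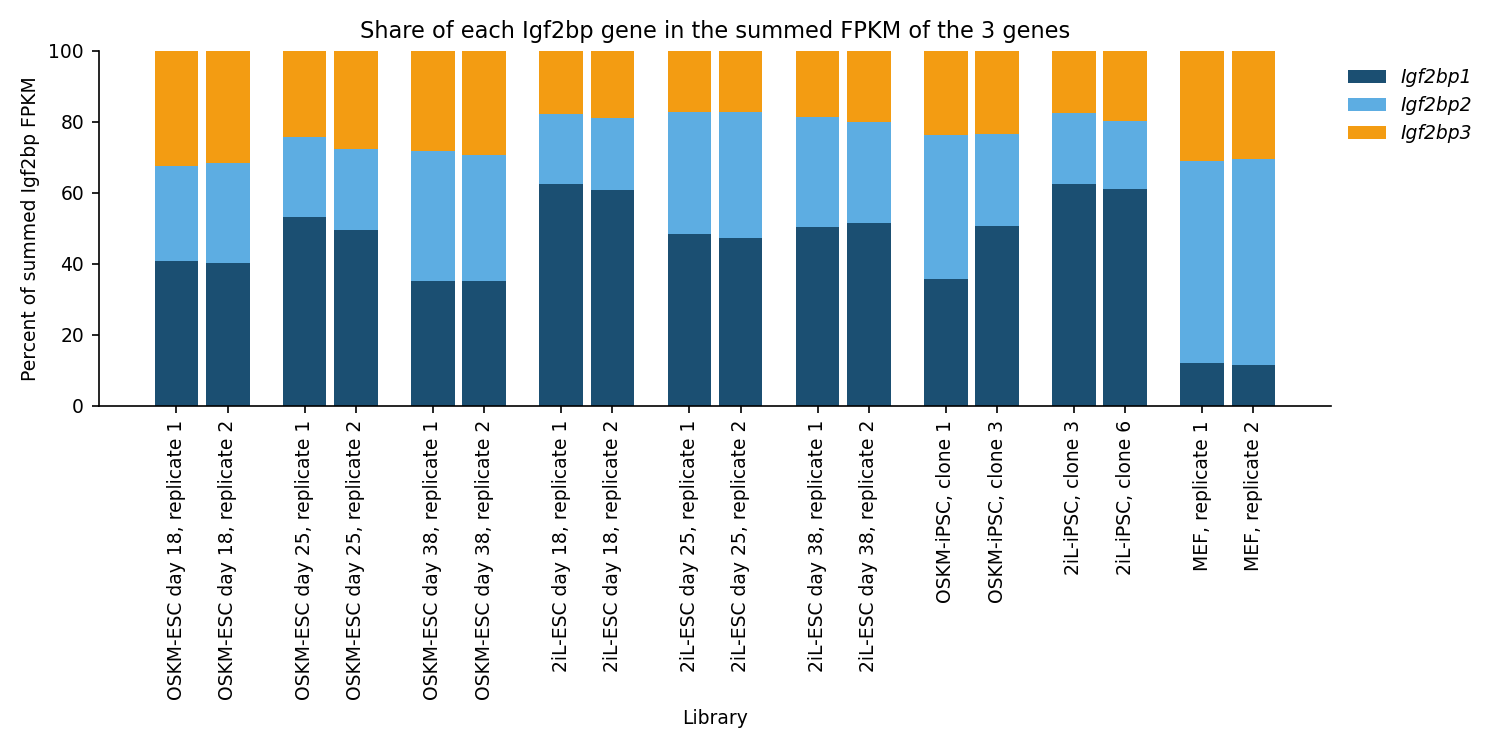
Share of Igf2bp1, Igf2bp2 and Igf2bp3 in the summed FPKM of the 3 genes (vertical axis, percent from 0 to 100) in each of 18 libraries (horizontal axis). The Igf2bp3 share is 24.2 to 32.4% in OSKM-ESCs and 17.1 to 20.1% in 2iL-ESCs, and Igf2bp2 makes up 56.9 and 58.2% in MEF cells.

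The iPSC comparison asked whether the same genes differ between clones kept by OSKM and in 2iL. Lin28a was the only member called, against 7.96% of the 13653 genes tested. Its FPKM was 135 and 130.0 in OSKM-iPSC clones 1 and 3, and 79.3 and 79.2 in 2iL-iPSC clones 3 and 6. The log2 change was 0.73 (SE 0.13, limma adjusted p = 0.0349), a ratio of 1.67. The change held at 0.71 to 0.76 when any 1 clone was left out, but the call was lost each time, with adjusted p-values of 0.0519 to 0.323.

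Lin28b was 21.7 and 9.64 in the OSKM-iPSC clones and 2.47 and 4.00 in the 2iL-iPSC clones. The OSKM clones did not overlap the 2iL clones, as for 37.2% of all genes in that direction, but they differed from each other by more than 2-fold. The log2 difference of 1.90 (SE 0.41) missed the threshold (limma adjusted p = 0.0518). Leaving out 1 clone gave differences of 1.35 to 2.45, and without OSKM-iPSC clone 3 the value of 2.45 passed (adjusted p = 0.0361).

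The other members did not pass in iPSCs. Igf2bp1 was 46.4 and 58.4 against 87.7 and 66.9 (-0.55, SE 0.20, limma adjusted p = 0.147), and Igf2bp2 was 53.1 and 30.0 against 28.4 and 21.1 (0.68, SE 0.31, adjusted p = 0.205). Igf2bp3 was 30.8 and 27.2 against 24.6 and 21.8 (0.31, SE 0.16, adjusted p = 0.261). In each of these the OSKM and 2iL clones did not overlap, as for 25.4% of all genes in the lower and 37.2% in the higher direction. Trim71, at 18.1 and 20.1 against 23.5 and 20.9, was lower in OSKM-iPSCs, also without overlap. Hmga2 was 34.5 and 12.2 against 22.1 and 11.998, and Hmga1 was 393 and 440.0 against 445 and 439, both with overlap. OSKM-iPSC clone 1, which also had the higher fibroblast markers, was the higher OSKM clone for Lin28a, Lin28b, Hmga2, Igf2bp2 and Igf2bp3. It was the lower clone for Trim71, Hmga1 and Igf2bp1. MEF cells had 0 for Lin28a, at most 0.0726 for Lin28b and 214 and 241 for Hmga2. They had 33.8 and 36.4 for Igf2bp2 and 18.4 and 19.1 for Igf2bp3. The part of fibroblasts in the clone 1 values was not tested. Igf2bp3 made up 23.5 and 23.7% of the summed Igf2bp FPKM in OSKM-iPSCs and 17.5 and 19.9% in 2iL-iPSCs.

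A test of the medium effect in iPSCs minus that in ESCs called Lin28a and Hmga1, both with a smaller effect in iPSCs than the mean of the 3 ESC days, against 14.2% of all genes (8.67% with a higher and 5.55% with a lower effect in iPSCs). The difference was -0.68 (SE 0.07, limma adjusted p = 0.000323) for Lin28a and -0.46 (SE 0.14, adjusted p = 0.0496) for Hmga1. At day 18 alone the Lin28a effect in ESCs, 0.53, was below the 0.73 of iPSCs. The Hmga1 call was lost in 13 of 16 fits that each left out 1 library (-0.55 to -0.38), and was kept without either OSKM-ESC library of day 18 or without OSKM-iPSC clone 3. Hmga1 levels in iPSCs, 393 to 445, lay below all ESC libraries and within the range of the MEF cells, 366 and 505. For Lin28b the difference was 0.31 and did not pass (adjusted p = 0.601).

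The comparison with MEF cells, the somatic starting type of the iPSCs, gave different directions for different members. Both MEF libraries listed Lin28a and Trim71 at 0, and Lin28b at 0 and 0.0726, so no fold is given. All 3 were higher in both kinds of iPSC. Igf2bp1 was 7.20 and 7.09 in MEF cells, and the mean FPKM was 7.34 times higher in OSKM-iPSCs (log2 change 2.71, SE 0.15, limma adjusted p = 0.00130) and 10.8 times higher in 2iL-iPSCs (3.25, SE 0.15, adjusted p = 5.91e-05). Hmga2 went the other way, with a mean 9.74-fold lower in OSKM-iPSCs (-3.40, SE 0.50, adjusted p = 0.00702) and 13.3-fold lower in 2iL-iPSCs (-3.72, SE 0.28, adjusted p = 0.000241). Hmga1 stayed near the MEF level in both (log2 changes of -0.05 and 0.04, adjusted p = 0.839 and 0.838).

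Igf2bp2 was 33.8 and 36.4 and Igf2bp3 was 18.4 and 19.1 in MEF cells. Igf2bp2 was lower in 2iL-iPSCs than in MEF cells (-0.50, SE 0.16, limma adjusted p = 0.0369) and not called in OSKM-iPSCs (0.18, adjusted p = 0.611). The call in 2iL-iPSCs was lost without clone 6 or either MEF library (-0.71 to -0.29 over 4 such fits, adjusted p up to 0.262). Igf2bp3 was higher in OSKM-iPSCs (0.60, adjusted p = 0.0143) and missed the threshold in 2iL-iPSCs (0.29, adjusted p = 0.0532). In all, 6 members were called in OSKM-iPSCs, 5 higher and 1 lower, against 60.3% of genes (34.0% higher, 26.4% lower). In 2iL-iPSCs 6 were called, 4 higher and 2 lower, against 78.0% of genes (40.6% higher, 37.4% lower). Both comparisons used the same 2 MEF libraries, and the median log2 change of all genes was 0.19 and 0.09. With either MEF library left out, the 6 calls in OSKM-iPSCs were lost, while leaving out 1 library at a time kept the Hmga2 change between -4.11 and -2.68. The Igf2bp makeup also differed in level, with Igf2bp1 at 11.3 and 12.1% of the sum in MEF cells against 35.6 to 62.3% in iPSCs.

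The genes that process let-7 or act with LIN28 were counted next, as a description of the pathway around the members. This list and those below were chosen with earlier results of these data known, so their counts are descriptions only. Over all days in ESCs, 3 of 10 were higher and 1 lower in OSKM-ESCs, with a median log2 change of 0.08 beside 0.03 for all genes, of which 29.5% were higher and 24.4% lower. Ago2, which encodes the slicing Argonaute, was lower (-0.40, limma adjusted p = 0.000963), with an FPKM of 10.8 to 18.96 against 14.7 to 24.5. Dis3l2, the nuclease that degrades uridylated let-7 precursors, was higher (0.35), at 6.57 to 9.42 against 3.95 to 7.97. Dgcr8, the partner of Drosha, was higher (0.31), at 24.1 to 33.8 against 20.9 to 24.1. In iPSCs 0 of the 10 were called by limma (1 at an unadjusted p under 0.05), beside 7.96% of all genes called. At day 38 in ESCs 6 were higher and 1 lower, beside 34.6% and 25.2% of all genes.

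Of 15 textbook let-7 target mRNAs outside the 8 genes, 10 were higher and 1 lower in OSKM-ESCs over all days, beside 29.5% and 24.4% of all genes, with a median log2 change of 0.52 beside 0.03. Myc was 67.9 to 141 in OSKM-ESCs and 7.57 to 13.6 in 2iL-ESCs (3.35, limma adjusted p = 3.31e-08). The OSKM cassette itself carries Myc, and cassette and endogenous reads were not separated here. The cyclin genes Ccnd2 (2.46) and Ccnd1 (1.44) were higher too, at 2.39 to 17.8 against 0.0988 to 0.516 and at 52.4 to 76.7 against 13.9 to 37.1. Both were higher still in MEF cells, at 175 to 176 and 137 to 156. As a percent of the MEF mean, Ccnd2 was 1.36 to 10.2% in OSKM-ESCs and 0.0563 to 0.294% in 2iL-ESCs. Ccnd1 was 35.8 to 52.3% and 9.46 to 25.3%, and the summed fibroblast markers were 1.54 to 2.75% and 0.301 to 0.527%. The relation of the cyclin genes to the fibroblast markers was not tested. Cdk6, named after its values were seen, was the 1 that was lower (-0.28, limma adjusted p = 0.0137). At day 38, 11 of the 15 were higher and 0 lower (34.6% and 25.2% of all genes), and in iPSCs 4 were higher and 0 lower (7.96% of all genes called in either direction).

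Of 5 mRNAs known to be bound by IGF2BP proteins, 4 were higher in OSKM-ESCs over all days and 0 lower, beside 29.5% and 24.4% of all genes, with a median log2 change of 2.26 beside 0.03. Of the 4, 1 is Myc, which the cassette carries. Igf2, the growth factor mRNA that gave the family its name, was 14.5 to 41.1 in OSKM-ESCs and 0.0642 to 0.953 in 2iL-ESCs (4.24, limma adjusted p = 1.12e-08). The neighbouring imprinted non-coding RNA H19 was 8.17 to 20.4 against 1.14 to 3.46 (2.26). Both were far higher in MEF cells, where Igf2 was 1123 to 1159 and H19 was 1696 to 2222. OSKM-ESCs thus held 1.27 to 3.60% of the MEF level of Igf2 and 0.417 to 1.04% of that of H19, beside the 1.54 to 2.75% of the fibroblast markers. In the OSKM-iPSC clones H19 was 337 and 917, or 17.2 and 46.8% of MEF, and Igf2 was 1.90 to 5.45% of MEF. The fibroblast markers were at 6.66% in clone 1 and 0.524% in clone 3. The part of fibroblasts in the Igf2 and H19 values was not tested. In iPSCs 3 of the 5 were higher and 0 lower, beside 7.96% of all genes called in either direction.

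Among 7 other high mobility group genes, 5 were higher and 1 lower in OSKM-ESCs over all days, beside 29.5% and 24.4% of all genes, with a median log2 change of 0.90 beside 0.03. The nucleosome-binding Hmgn3 (2.03), at 3.23 to 8.56 against 0.287 to 1.36, Hmgb3 (1.50), at 32.6 to 79.8 against 14.6 to 17.7, and Hmgn5 (1.38), at 17.4 to 38.8 against 8.39 to 13.8, had the largest changes of the list. Hmgb2, named after its values were seen, was the lower one (-0.22, limma adjusted p = 0.0247). Of 3 other TRIM-NHL genes, the relatives of Trim71, 2 were higher and 0 lower, with the same shares of all genes beside them. Trim2 (0.66) was 7.98 to 14.8 against 4.03 to 8.996, and Trim32 (0.51) was 9.51 to 12.8 against 6.96 to 7.66, whereas Trim71 itself was not called.

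The let-7 loci had low values in these libraries, which were made from poly(A) RNA and do not measure mature miRNAs. Of 12 loci listed (11 hairpins and the host gene Mir99ahg), 0 had an FPKM over 1 in any library, and the highest hairpin value was 0.780, for Mirlet7e in MEF cells. Mir99ahg was 0.628 and 0.688 in MEF cells.

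The genes whose pattern over the 16 pluripotent libraries was most like that of each member are given as a description, from 9525 genes, by Pearson's r on log2(FPKM + 1). The libraries share medium and day, and no test was made. Lin28a was most like Spop (0.96), Pdzd4 (0.96) and Zfp423 (0.95), and Lin28b most like Hsd17b7 (0.98), Grb10 (0.98) and Pclaf (0.97). For Igf2bp3 they were Ankrd49 (0.96), Fst (0.95) and Cdh2 (0.95), and for Igf2bp2 they were Phactr4 (0.97), Aldh5a1 (0.95) and Papss1 (0.94). Hmga1 was most like Rrs1 (0.98), Ier2 (0.92) and Tmem11 (0.92), whereas Trim71 had Atf7ip (0.92), Bptf (0.86) and Zfp142 (0.85). Igf2bp1 had Cluh (0.91), Prrt3 (0.91) and Exosc5 (0.90), and Hmga2 had Zfp62 (0.89), Sept11 (0.89) and Smc6 (0.89).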

How the data were processed

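Total RNA was extracted with TRIzol, and libraries were made from poly(A) RNA with the NEBNext Ultra kit; strandedness is not given in the sources used here. The authors aligned reads to GRCm38 with STAR 2.7.1a, kept uniquely mapped reads and ran StringTie 2.0, with Cuffdiff 2.2.1 for differential expression, per the submitters' processing notes and the methods. The deposited FPKM values are StringTie's and were used as deposited. The deposited TPM values, used as an alternative, are the same estimates rescaled to a common total, and were usable in 16 libraries and recomputed from FPKM in the other 2. The coverage deposited with them is mean reads per base, an unscaled signal. Read depth is unknown, and coverage per unit of FPKM was 5 to 6.07. A total of 2 genes with a failed value were left out and 11 repeated identifiers were summed. Of the gene identifiers, 55142 were in GENCODE M21 and 54809 had the same coordinates there.

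Groups came from the sample labels. Cuffdiff needs aligned reads, so limma 3.58.1 (R 4.3.3, lmFit and eBayes with trend) took log2(FPKM + 1) as its response, using the libraries of each comparison only. A gene entered when 1 or more of those libraries exceeded FPKM 1. Day was a covariate where days were pooled. Benjamini-Hochberg adjustment covered all genes tested, and the threshold was 0.05. Other steps used Python 3.11.15, numpy 2.4.6, scipy 1.17.1, pandas 2.3.3 and matplotlib 3.10.9. On simulated data with 200 changed genes, 100% of those with a log2 change of 2 were called over all days (7 false calls), 98% at day 38 (9 false calls) and 53% in iPSCs (2 false calls). With a log2 change of 1 the shares were 99%, 78% and 4%, so a gene not called in iPSCs may still differ.

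The members and the gene lists were chosen with earlier results of these data known. Text names the 8 members, Hmga1b, and from each list up to 3 called genes with the largest change over all days in ESCs, plus Myc and Igf2. Cell-type markers, Cdk6 and Hmgb2 were named outside this rule. Likeness was searched among genes exceeding FPKM 5 in 1 or more libraries. Alternatives were a pseudocount of 0.1, other filters, median-ratio and quantile scaling, TPM, no trend, a single fit of all 9 conditions, the study's 2-fold cutoff, the replicate number as a block, and leaving out each library. Replicate numbers did not pair the libraries: same-numbered ESC libraries of a day deviated together with r = 0.131, 0.0904 and 0.0120.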

Additional observations from a re-analysis of the deposited data

Results flagged for a closer look

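Trim71 in the 6 2iL-ESC libraries had 1 library away from the rest, day 18 replicate 1 at an FPKM of 16.9, whose gap to its neighbour was 0.666 of the range of the group. Chance gives such a value in about 1 of 20 groups, and 16 groups were tested.

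The difference between media changed from day to day, by limma's test of the interaction, for Lin28a (range 1.70 on the log2 scale), Hmga2 (1.23), Igf2bp1 (0.66) and Igf2bp2 (1.24), where the median range of all genes was 0.51. For Hmga2, Igf2bp1 and Igf2bp2 the sign of the difference at day 25 was opposite to that at day 38. The day 25 values of Hmga2 (-0.36, limma adjusted p = 0.214) and Igf2bp1 (0.04, adjusted p = 0.691) did not pass on their own. The difference between media was smaller in iPSCs than the mean over the 3 ESC days for Lin28a (-0.68) and Hmga1 (-0.46), by limma's contrast over the 16 pluripotent libraries. At day 18 alone the Lin28a difference, 0.53, was below that of iPSCs, 0.73, and the Hmga1 call was lost in 13 of 16 fits that each left out 1 library.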

How the results depend on the processing

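Depth in reads is unknown, and 2 libraries per group limit the single-day, iPSC and MEF comparisons most. In 12 fits that each left out 1 library, the changes over all days kept their calls for Lin28a (1.31 to 1.53), Lin28b (1.52 to 1.64), Hmga1 (0.34 to 0.44) and Igf2bp3 (0.68 to 0.78). Outside the fits that left out a library, the single-gene values of members and the paralog ratios were counted together. They kept direction and call in 757 cases, lost a call in 47, gained one in 20 and turned direction in 7.

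The 7 turns were of small, uncalled values: Trim71 over all days with TPM (0.0209), Hmga2 at day 18 with median-ratio scaling (-0.000360), Hmga1 in iPSCs with quantile normalization (0.0550), Igf2bp2 in OSKM-iPSCs against MEF cells with median-ratio scaling (-0.0113), and Hmga1 in 2iL-iPSCs against MEF cells with TPM (-0.0958), after quantile normalization (-0.0762) and with median ratios (-0.0948). Leaving out 1 library gave ranges across 0 for Trim71 over all days (-0.0551 to 0.0336), Hmga2 at day 18 (-0.0746 to 0.20), Hmga2 in iPSCs (-0.39 to 1.03), Hmga1 (-0.28 to 0.18) and Igf2bp2 (-0.22 to 0.58) in OSKM-iPSCs against MEF cells, Hmga1 in 2iL-iPSCs against MEF cells (-0.19 to 0.27), and, for iPSCs minus ESCs, Lin28b (-0.24 to 0.86) and Hmga2 (-0.58 to 0.84). It did so too for the paralog ratios Lin28b to Lin28a (-0.0111 to 0.31) and Hmga2 to Hmga1 (-0.35 to 0.0117).

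With the study's cutoff of 2-fold and an unadjusted p under 0.05, 2 members were called over all days, 1 at day 18, 2 at day 25 and 2 at day 38. A single fit of all 9 conditions called 4 at day 38, 5 in iPSCs and 1 for iPSCs minus ESCs. In iPSCs, 2 were called with a pseudocount of 0.1, without a filter, or with FPKM over 1 in at least 2 libraries, and 0 without trend. For iPSCs minus ESCs, 1 was called with a pseudocount of 0.1, without a filter, with TPM or without trend. The cause was not tested. Without a filter, genes listed at or near 0 entered the fit, and their effect on its variance estimates was not tested.

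Leaving out 1 library gave 4 to 5 calls over all days, 2 to 5 at day 18 (2 without either 2iL-ESC library), 2 to 6 at day 25 (3 and 2 without 2iL-ESC replicate 1 and 2), 5 to 7 at day 38, 0 to 1 in iPSCs, 0 to 7 in OSKM-iPSCs against MEF cells (0 without either MEF library) and 5 to 6 in 2iL-iPSCs against MEF cells. It gave 4 to 5 for the interaction, 2 to 6 across days in OSKM-ESCs (2 without either day 38 library), 2 to 6 in 2iL-ESCs (6 without day 18 replicate 2), 1 to 4 for iPSCs minus ESCs (4 without OSKM-iPSC clone 3) and 1 to 2 paralog ratios. With the replicate number as a block, 0 of the 2 paralog ratios passed (adjusted p = 0.0781). Both reached 0.0312, the smallest exact p that 6 pairs allow, so 2 ratios at that minimum could not pass after adjustment over 5, and the loss says nothing of their stability. Igf2bp1 lost its call over all days (-0.27, adjusted p = 0.0714). Igf2bp1 also lost it with TPM (adjusted p = 0.0542) and without a filter (adjusted p = 0.140). Block counts were 4 over all days, 6 at day 18, 5 at day 25, 7 at day 38, 4 for the interaction, 5 across days in OSKM-ESCs and 2 in 2iL-ESCs. No paired analysis was possible for iPSCs and MEF cells because their numbers overlap in fewer than 2 samples. TPM moved the median change of all genes to 0.11 at day 18, 0.15 at day 38 and 0.12 in iPSCs.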
